A study of Mus musculus with 4 samples.

Results

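The genes described here are 8 that encode abundant proteins of the cytoskeleton: the cytoplasmic actins Actb and Actg1, the actin monomer-binding protein thymosin beta 4 (Tmsb4x), the actin cross-linker filamin A (Flna), the heavy chain of non-muscle myosin IIA (Myh9), the tubulins Tubb5 and Tuba1b, and the intermediate filament protein vimentin (Vim). They were taken by gene symbol, and all 8 were found among the 47069 gene IDs of the table, of which 14421 had a count. Lewis lung carcinoma, an established mouse lung carcinoma line, had been grown under the skin of C57BL/6 mice, and tumours were cut 3 weeks after inoculation. The tumour group was RNA of primary tumour in 2 libraries. The exosome group was RNA of vesicles that small tumour pieces released over 12 h of culture without serum, in 2 libraries, with the medium passed through a 0.2 µm filter and the vesicles for RNA recovered with a precipitation reagent and no ultracentrifugation. Strain and inoculated line were the same in both groups. A tumour of this kind holds host cells beside carcinoma cells, and neither group was sorted, so more cells of a type and more RNA per cell cannot be told apart in the tumour, nor more vesicles and more RNA per vesicle in the exosomes. The replicates are labelled only as replicates, so the p-values measure the spread between these libraries, which may be technical.

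Cells hold 3 filament systems. Actin filaments grow from monomers that thymosins hold in reserve, are tied into networks by filamins and are pulled by non-muscle myosin. Microtubules are built from dimers of alpha- and beta-tubulin and carry cargo and the mitotic spindle, and vimentin forms the intermediate filaments of mesenchymal cells and of many carcinoma lines. The messenger RNAs of these proteins are among the most abundant of growing cells, and actin and tubulin messages are commonly used as reference genes.

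The exosome libraries held 305751 and 217201 counts and the tumour libraries 14543691 and 10849811. Protein-coding genes had 8640 and 7160 counts in exosomes and 225866 and 171152 in tumour. Of these, Snrpb, Yipf1 and Rpl7a each held more than 5% in at least 1 library, and Snrpb alone held up to 67.2%. Shares of coding counts are therefore also given without these 3 genes and without mitochondrial genes, and this smaller sum is called the core coding counts. It came to 7639 and 5521 in exosomes and 58004 and 40757 in tumour. In CPM, counts scaled to a common library total, a single count is worth 3.27 and 4.60 in the exosome libraries, so low exosome values are coarse. The intervals below are exact 95% binomial intervals and cover counting error only, since amplified reads without molecular identifiers are not independent molecules.

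How far a count can be given to its gene depends on sequence shared with other genes, and for the actins and alpha-tubulins that is much of the message. The coding sequences of Actb and Actg1 were both 1125 bases long and identical at 88.6% of positions. The stretches below show where they differ most and where they do not differ at all, 60 bases each from GENCODE M21 transcripts on GRCm38, 5′ to 3′ on the minus strand, with bases that differ between the 2 genes in capitals.
Actb, coding bases 58 to 117, chr5:142905570-142905629: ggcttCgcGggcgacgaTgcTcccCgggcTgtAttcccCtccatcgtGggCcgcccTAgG
Actg1, coding bases 58 to 117, chr11:120347975-120348034: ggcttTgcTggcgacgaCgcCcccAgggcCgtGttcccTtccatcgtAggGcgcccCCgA
Actb, coding bases 889 to 948, chr5:142904103-142904162: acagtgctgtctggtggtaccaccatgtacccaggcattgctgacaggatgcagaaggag
Actg1, coding bases 889 to 948, chr11:120346673-120346732: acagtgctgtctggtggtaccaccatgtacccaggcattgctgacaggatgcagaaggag
The first pair differs at 13 of 60 bases, so a read there tells Actb from Actg1, and the second pair lies in an identical run of 62 bases, where a short read does not. Tuba1b is closer still to its neighbours Tuba1a and Tuba1c, at 98.3% and 98.1% of coding positions.

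Counted over all windows of 25 bases of the main coding transcript, 57.3% of Actg1, 45.1% of Actb and 76.4% of Tuba1b recurred in a transcript of another annotated gene. For Actg1 the share was 100% of its coding windows, through processed pseudogenes such as Gm12715 and Gm8399, and for Tuba1b it was 98.3%. Of the windows of Actb, 29.3% recurred in Lrrc58, which had 2 and 3 counts in exosomes and 16 and 8 in tumour, and 7.07% in Actg1. The remaining genes were nearly unique: the share was 7.62% for Tubb5, 2.40% for Myh9, 0.922% for Vim, 0.0241% for Flna and 0 of 840 windows for Tmsb4x. Which reads with several matches were counted, and where, is not given in the sources used here, so the values of Actg1 and Tuba1b, and less so Actb, are uncertain for the single gene.

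Together the 8 genes had 148 and 100 counts in the exosome libraries and 871 and 581 in the tumour libraries. That was 484 and 460 CPM in exosomes, with intervals of 409 to 569 and 375 to 560, against 59.9 and 53.5 in tumour, with intervals of 56.0 to 64.0 and 49.3 to 58.1. Both exosome libraries lay well above both tumour libraries, and the group means, 472 ± 16.7 and 56.7 ± 4.48 (SD, n = 2), differed 8.33-fold. Every member had exosome values above tumour values on this scale, 8 of 8, and so did 97.6% of protein-coding genes and 92.6% of all genes with a count in every library, while 0.856% and 5.58% had both exosome values below. On this scale the 8 genes therefore do not stand out from other genes. Within the core coding counts the 8 genes held 1.94% and 1.81% in exosomes, with intervals of 1.64 to 2.27% and 1.48 to 2.20%, and 1.5% and 1.43% in tumour, with intervals of 1.40 to 1.60% and 1.31 to 1.55%. The exosome shares were again the higher ones, by 1.28-fold in the means, but the interval of exosome replicate 2 reached into those of the tumour. Pooled over replicates, the ratio was 1.28 with a counting interval of 1.12 to 1.47, which leaves out the spread between replicates. The smallest p that an exact permutation test (two-sided) can give with this design is 0.33, so the summed shares are described and not tested.

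**Figure D1:**
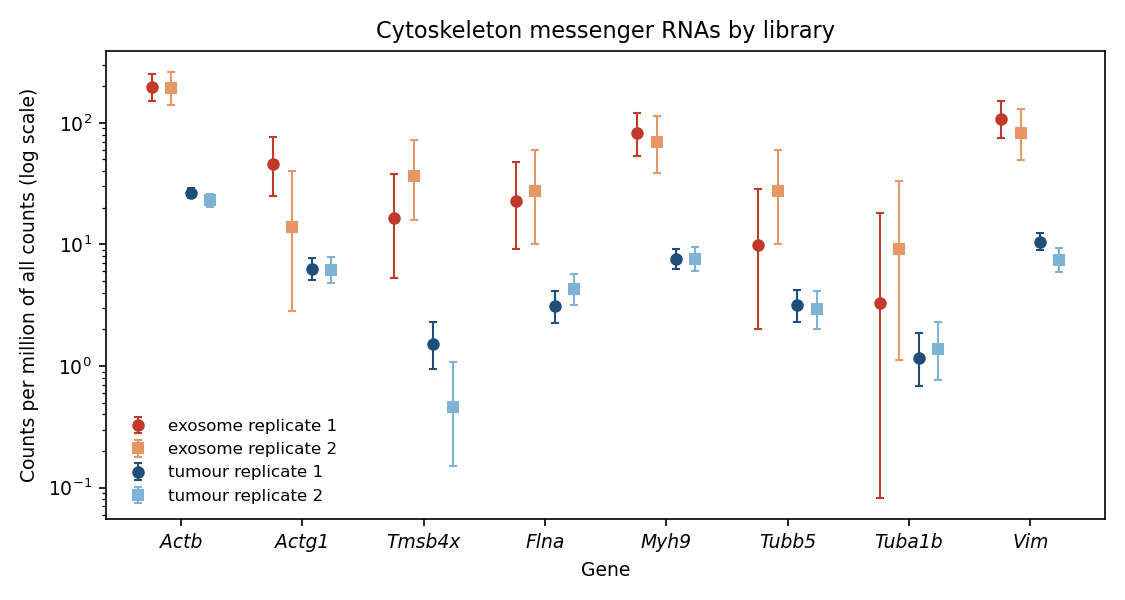
CPM of all counts, on a log axis, for each of the 8 genes in 2 exosome and 2 tumour libraries; points are single libraries and bars exact 95% binomial intervals. Actb is the highest gene in every library, at 196 and 193 in exosomes and 26.5 and 23.1 in tumour, and the bars of Tuba1b, which had 1 and 2 exosome counts, are the widest.

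Actb encodes beta-actin, the main actin of non-muscle cells (ENSMUSG00000029580, chromosome 5, 142903115 to 142906754, minus strand, GRCm38). It had 60 and 42 counts in exosomes and 385 and 251 in tumour. As a share of core coding counts this was 0.785% and 0.761% in exosomes and 0.664% and 0.616% in tumour, so the exosome libraries were slightly above and the groups did not overlap. By count it stood at rank 3 of 4184 and rank 4 of 3127 protein-coding genes with a count in the exosome libraries, and at rank 14 of 8724 and 14 of 7783 in tumour. After TMM scaling, which sets the typical tested gene near 0, the log2 difference of exosomes minus tumour was 0.19 with a 95% interval of −0.23 to 0.61 (SE 0.18, edgeR adjusted p = 0.511).

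Actg1 encodes gamma-actin, the other cytoplasmic actin (ENSMUSG00000062825, chromosome 11, 120345690 to 120348542, minus strand). It had 14 and 3 counts in exosomes and 92 and 67 in tumour, or 0.183% and 0.0543% of core coding counts in exosomes and 0.159% and 0.164% in tumour. The exosome libraries fell on either side of the tumour libraries, and the difference was −0.41 with an interval of −1.5 to 0.68 (edgeR adjusted p = 0.592). Which exosome library is kept decides the value. In each fit that leaves out a library, here and below, 1 group is a single library that is assumed to vary like the other group, so the p-value rests on the spread of the remaining pair. Without exosome replicate 1 it was −1.78 (edgeR adjusted p = 0.0252), and without exosome replicate 2 it was 0.21 (edgeR adjusted p = 0.798). With the 7 processed pseudogenes that are at least 90% identical added, the counts were 23 and 9 in exosomes and 156 and 97 in tumour, and the difference was −0.15 (edgeR adjusted p = 0.806). The ratio of the actins thus differed between exosome libraries more than between tumour libraries, at counts of 60 to 14 and 42 to 3 against 385 to 92 and 251 to 67.

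Tmsb4x encodes thymosin beta 4, which holds actin as monomers (ENSMUSG00000049775, chromosome X, 167207093 to 167209315, minus strand). It had 5 and 8 counts in exosomes and 22 and 5 in tumour, or 0.0655% and 0.145% of core coding counts in exosomes and 0.0379% and 0.0123% in tumour. Both exosome libraries were above both tumour libraries, and the tumour libraries themselves differed. It was admitted to the test through the exosome libraries alone, where it is high, so it could enter only with a difference of this direction on the CPM scale, and the p-values below support nothing on their own. Its log2 difference was 1.79 with an interval of 0.19 to 3.39 (SE 0.68), with an unadjusted p of 0.0329, and it did not pass after adjustment over all tested genes (edgeR adjusted p = 0.0799). It passed with a core coding scaling (1.88, edgeR adjusted p = 0.0212), without exosome replicate 1 (2.21, edgeR adjusted p = 0.0370) and without tumour replicate 1 (2.86, edgeR adjusted p = 0.000694). It did not pass without exosome replicate 2 (1.31, edgeR adjusted p = 0.352) or without tumour replicate 2 (1.30, edgeR adjusted p = 0.167). Pooled over replicates, 13 exosome and 27 tumour counts gave a ratio of core coding shares of 3.61, with a counting interval of 1.71 to 7.25.

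Flna encodes filamin A, which cross-links actin filaments and ties them to membrane receptors (ENSMUSG00000031328, chromosome X, 74223461 to 74249820, minus strand). It had 7 and 6 counts in exosomes and 45 and 47 in tumour. Its shares of core coding counts, 0.0916% and 0.109% in exosomes and 0.0776% and 0.115% in tumour, overlapped. The log2 difference was −0.02 with an interval of −1.03 to 1.0 (edgeR adjusted p = 0.993).

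Myh9 encodes the heavy chain of non-muscle myosin IIA, the motor that contracts actin networks (ENSMUSG00000022443, chromosome 15, 77760587 to 77842175, minus strand). It had 25 and 15 counts in exosomes and 111 and 83 in tumour, or 0.327% and 0.272% of core coding counts against 0.191% and 0.204%. The exosome libraries were both above the tumour libraries. The log2 difference was 0.54 with an interval of −0.08 to 1.15 (SE 0.26, edgeR adjusted p = 0.164), so it did not pass.

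Tubb5 encodes the main beta-tubulin of dividing cells (ENSMUSG00000001525, chromosome 17, 35833921 to 35838306, minus strand). It had 3 and 6 counts in exosomes and 46 and 32 in tumour. Its shares of core coding counts were 0.0393% and 0.109% in exosomes, on either side of 0.0793% and 0.0785% in tumour. The log2 difference was −0.28 with an interval of −1.39 to 0.83 (edgeR adjusted p = 0.746).

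Tuba1b encodes a widely expressed alpha-tubulin (ENSMUSG00000023004, chromosome 15, 98931425 to 98934565, minus strand). It had 1 and 2 counts in exosomes and 17 and 15 in tumour, which is too few to place the exosome level: pooled over replicates, the ratio of core coding shares was 0.704 with a counting interval of 0.138 to 2.25. The fitted difference was −0.58 with an interval of −2.23 to 1.06 (edgeR adjusted p = 0.662). Adding its 5 near-identical pseudogenes and the isotypes Tuba1a and Tuba1c gave 5 and 3 exosome counts against 53 and 41 in tumour, and a difference of −0.73 (edgeR adjusted p = 0.272).

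Vim encodes vimentin (ENSMUSG00000026728, chromosome 2, 13573927 to 13582826, plus strand). It had 33 and 18 counts in exosomes and 153 and 81 in tumour, or 0.432% and 0.326% of core coding counts against 0.264% and 0.199%. The exosome libraries were both above the tumour libraries, although replicate 1 exceeded replicate 2 in both groups. The log2 difference was 0.65 with an interval of −0.05 to 1.34 (SE 0.29, edgeR adjusted p = 0.138). Without exosome replicate 2, with a single exosome library in the fit, it was 0.91 (edgeR adjusted p = 0.0190).

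All 8 genes were among the 1442 tested, and by edgeR's quasi-likelihood test with TMM scaling 0 of 8 were called in either direction, where 16.0% of all tested genes were called higher in exosomes and 22.1% lower, and 5.35% and 10.5% of the 954 tested protein-coding genes. By DESeq2 0 of 8 were called as well, beside 14.4% of all tested genes called higher and 20.7% lower. Of the protein-coding ones DESeq2 called 3.67% higher and 8.81% lower, and 282 of them had no adjusted p. Of the 8 differences, 4 were above 0 and 4 below, with a median of 0.09 beside 0.06 for tested protein-coding genes and 0.02 for all. Tmsb4x and Tuba1b passed the filter on low counts through the exosome libraries alone, and the other 6 reached the filter level of 1.79 CPM in all 4 libraries. On core coding shares, 4 of 8 genes (Actb, Tmsb4x, Myh9 and Vim) had both exosome libraries above both tumour libraries, beside 52.9% of protein-coding genes with a count in every library, and 0 of 8 had both below, beside 12.6%. The count of 4 is thus close to the background. The intervals of Actg1, Flna, Tubb5 and Tuba1b reach at least 0.68 above 0 and −1.03 below it on the log2 scale, so they do not exclude differences of that size in either direction.

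The direction of a member depends on what it is measured against. With library totals as the scale, the median over all tested genes was 2.75 in place of 0.02, and 7 of 8 members were then called higher, beside 63.8% of all tested genes and 69.2% of protein-coding ones (1.78% of which were called lower), with Actb at 2.97 and Tuba1b, not called, at 2.17 (edgeR adjusted p = 0.0519). Relative to the median of tested protein-coding genes the members hardly moved between these scalings: Actb was 0.13 above it with TMM and 0.15 with library totals, Vim 0.58 and 0.59, and Actg1 −0.47 and −0.46. Against that median the members moved more with the filter, which also changes the genes that give the median. A stricter filter, of at least 10 counts in 2 or more libraries, gave a median of −0.51 over all tested genes, and Actb (0.63, edgeR adjusted p = 0.0225), Myh9 (0.98, edgeR adjusted p = 0.0150) and Vim (1.09, edgeR adjusted p = 0.0117) were then called higher, 3 of the 7 members still tested, beside 16.8% of all tested genes and 5.51% of protein-coding ones, with 25.8% of all called lower. With no filter the median was −1.86, and Actb (−0.99, edgeR adjusted p = 0.000701) and Actg1 (−1.58, edgeR adjusted p = 0.00181) were called lower, beside 4.23% of all genes and 2.98% of protein-coding ones, with 1.49% and 0.339% called higher. The core coding sum as scale called Tmsb4x alone, 1 of 8, beside 17.1% of all tested genes and 6.71% of protein-coding ones. By limma on log2(FPKM + 1), 5 of 8 were called higher, beside 57.6% of all tested genes and 60.4% of protein-coding ones, with 3.35% of the latter called lower.

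**Figure D2:**
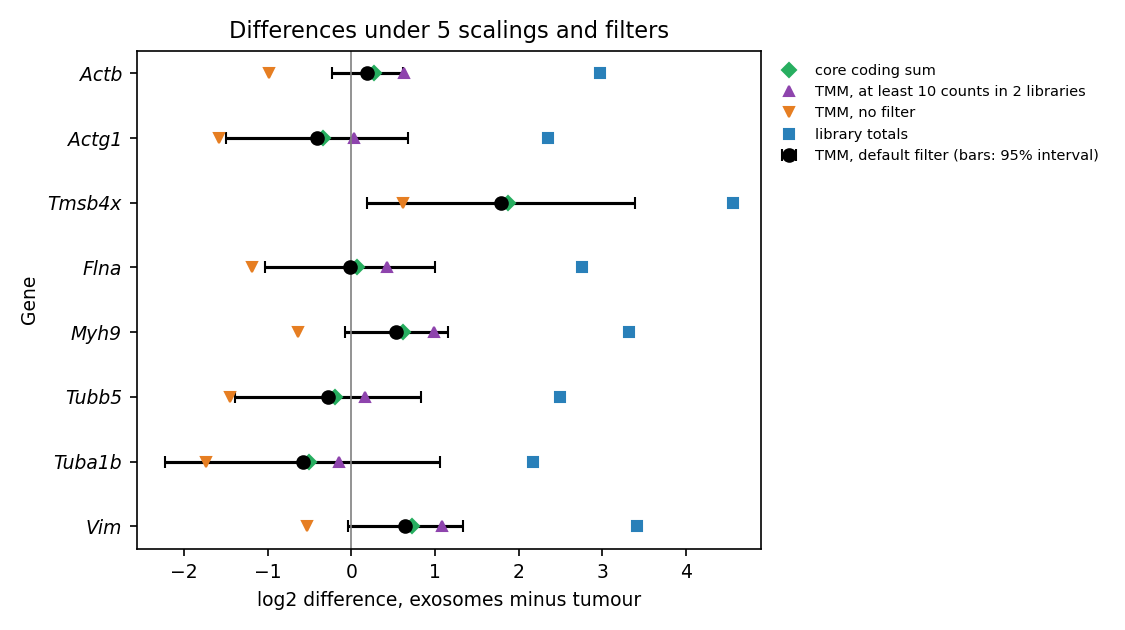
Log2 difference of exosomes minus tumour for each gene under 5 combinations of scaling and filter; black points are the TMM fit with its 95% interval, and coloured symbols are the other settings. Within each setting the order of the genes is nearly the same, and what shifts is the position of all 8 against 0, from −0.99 to 2.97 for Actb.

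The make-up of the 8 genes does not depend on library scaling. Actb supplied 40.5% and 42.0% of their counts in exosomes and 44.2% and 43.2% in tumour, and the exosome intervals, 32.6 to 48.9% and 32.2 to 52.3%, held both tumour values. Vim came next with 22.3% and 18.0% against 17.6% and 13.9%, followed by Myh9 with 16.9% and 15% against 12.7% and 14.3%. Actg1 had 9.46% and 3.0% against 10.6% and 11.5%, and the upper limit of exosome replicate 2, 8.52%, lay under both tumour lower limits, 8.60% and 9.05%. Tmsb4x had 3.38% and 8.0% against 2.53% and 0.861%, and here the interval of exosome replicate 2, 3.52 to 15.2%, overlapped that of tumour replicate 1, 1.59 to 3.80%, and lay above that of tumour replicate 2, 0.280 to 2.00%. Flna, Tubb5 and Tuba1b held at most 8.09% in any library.

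**Figure D3:**
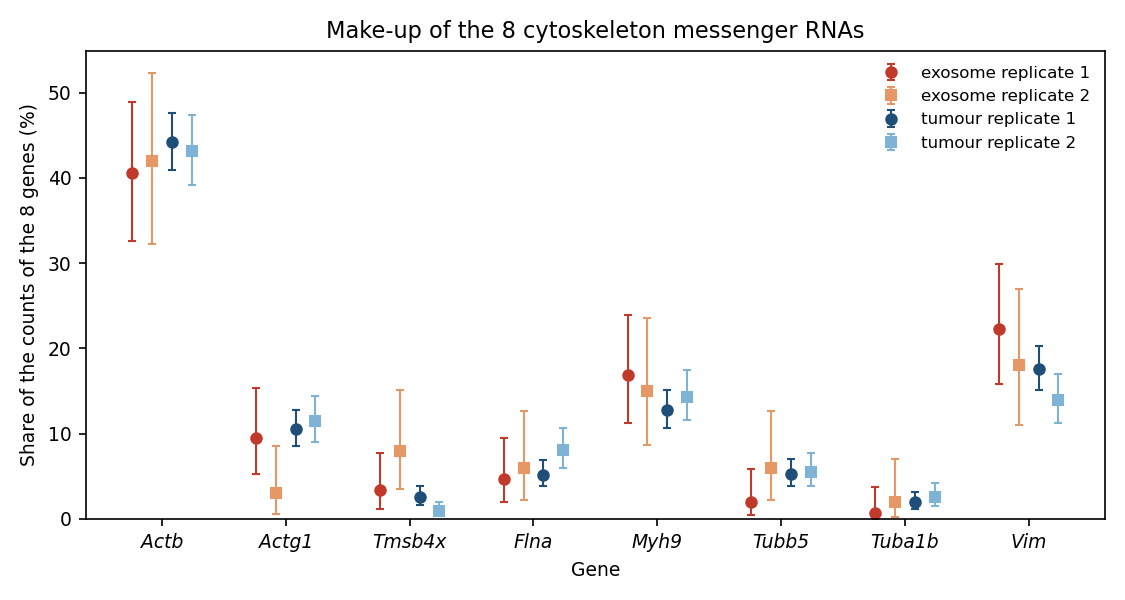
Share of the summed counts of the 8 genes held by each gene, in percent, in each library; points are single libraries and bars exact 95% binomial intervals. Actb lies between 40.5% and 44.2% in all 4 libraries, Actg1 is lowest in exosome replicate 2 at 3.0%, and Tmsb4x is highest there at 8.0%.

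Counts grow with transcript length, so levels between genes were compared as CPM per kilobase of the main coding transcript. In exosomes the order of means was Actb at 101 ± 1.06, Vim at 43.5 ± 8.08, Tmsb4x at 30.8 ± 16.8, Actg1 at 15.3 ± 11.6, Myh9 at 10.1 ± 1.21, Tubb5 at 7.07 ± 4.75, Tuba1b at 3.58 ± 2.41 and Flna at 3.04 ± 0.402 (SD, n = 2). In tumour it was Actb at 12.9 ± 1.23, Vim at 4.10 ± 0.985, Actg1 at 3.20 ± 0.0545, Tubb5 at 1.15 ± 0.0570, Tmsb4x at 1.14 ± 0.861, Myh9 at 1.03 ± 0.00169, Tuba1b at 0.732 ± 0.0867 and Flna at 0.447 ± 0.105. Actb and Vim led in both groups. In exosomes the neighbours from Vim to Flna differed by less than their summed SDs, as did Vim and Actg1, Tubb5 and Tmsb4x, and Tmsb4x and Myh9 in tumour. Myh9 and Flna, the longest messages at 7433 and 8312 bases, rank lower per length than by count.

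Actb had deposited FPKM of 33.3 and 32.8 in exosomes and 4.49 and 3.92 in tumour, and Vim 13.8 and 10.6 against 1.35 and 0.956. The length behind each FPKM can be read from count and library total, and it was longer than the main transcript for every member: 5902 bases for Actb, whose main transcript has 1920 and whose whole gene spans 3640, and 2269 for Tuba1b, whose transcript has 1743. FPKM therefore understate Actb 3.07-fold and Vim 3.56-fold per length of a single transcript, but Tuba1b only 1.30-fold. Fold changes between libraries are not touched by this, since the length is the same in all 4.

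Genes can also be taken by their tumour level alone, a view added after the data were seen. Of 895 protein-coding genes outside the mitochondrial genome with at least 20 tumour counts in all, the median ratio of pooled exosome to tumour core coding share was 0.647, and 110 had no exosome count. These genes were chosen on tumour counts, which also form 1 side of the ratio. The choice itself tends to lower their median ratio, so a place above it supports nothing on its own. On this scale Tmsb4x stood at 3.61, Vim at 1.64, Myh9 at 1.55, Actb at 1.20, Flna at 1.06, Tubb5 at 0.866, Actg1 at 0.802 and Tuba1b at 0.704. The counting intervals of Tmsb4x, Vim (1.18 to 2.22) and Myh9 (1.07 to 2.18) lay above 1, while that of Actb, 0.967 to 1.485, did not. All 8 were above the median of these genes, and 1.45% of them had a higher ratio than Tmsb4x, 20.3% than Actb and 44.5% than Tuba1b.

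The wider cytoskeleton was covered by 8 lists with 171 genes outside the 8, of which 153 had a count and 58 were tested. In exosomes 3 of the 58 were higher and 2 lower, beside 5.35% and 10.5% of tested protein-coding genes. With library totals 51 were higher and 0 lower, beside 69.2% and 1.78%. The median difference was 0.39 with TMM, beside 0.06 for tested protein-coding genes. It is a description only, since part of the 58 lay under 1.79 CPM in both tumour libraries and entered through the exosome libraries alone. Among these were Capzb, with 7 and 3 tumour counts, and Kif5b, with 12 and 5. With at least 10 counts in 2 or more libraries, 37 were tested, 6 higher and 1 lower, beside 5.51% and 12.3% of protein-coding genes and 16.8% and 25.8% of all genes. The 3 genes called higher with the default filter, Tmsb10, Capg and Myl12a, did not reach 1.79 CPM in either tumour library. They were therefore tested only through the group where they are high, and their calls are given as a description. Tmsb10, a close relative of Tmsb4x, was higher by 1.30 (SE 0.42, adjusted p = 0.0439 by edgeR), from counts of 7 and 7 in exosomes and 22 and 18 in tumour. Capg, which caps filament ends, was higher by 2.19 (edgeR adjusted p = 0.0222) on 2 and 4 counts against 6 and 3, and Myl12a, a regulatory light chain of non-muscle myosin whose sequence is close to Myl12b, by 1.63 (edgeR adjusted p = 0.0318) on 5 and 6 counts against 14 and 11. None of these 3 was called by DESeq2 (adjusted p = 0.131, 0.0935 and 0.0866), and the Tmsb10 call was lost when any library was left out (edgeR adjusted p from 0.113 to 0.232). The Capg call was lost without exosome replicate 2 (1.51, edgeR adjusted p = 0.436), and the Myl12a call without exosome replicate 1 (1.86, adjusted p = 0.0769 by edgeR), exosome replicate 2 (1.38, 0.241) or tumour replicate 1 (1.53, 0.0909).

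Arpc1b, a subunit of the Arp2/3 complex that branches actin filaments (chromosome 5, 145114215 to 145130705), was lower by −3.51 on the log2 scale (SE 0.42, adjusted p = 0.000255 by edgeR), from counts of 3 and 1 in exosomes and 193 and 134 in tumour. Of the other tested Arp2/3 subunits, Actr2 had 3 and 0 counts in exosomes and 31 and 16 in tumour, with a difference of −1.12 (edgeR adjusted p = 0.407). Actr3 had 1 and 2 against 14 and 11, with a difference of −0.23 (edgeR adjusted p = 0.898). Arpc1b overlaps Pdap1 on the opposite strand, which had at most 5 counts. The Arpc1b value was −3.64 by DESeq2 (adjusted p = 2.12e-05), and with library totals it was −0.75 (edgeR adjusted p = 0.326). Over single libraries left out it ran from −4.38 to −3.04. Actn1, the cross-linker alpha-actinin 1, was lower by −1.68 (edgeR adjusted p = 0.0235) on 3 and 2 counts against 63 and 51, turned to 1.08 with library totals (edgeR adjusted p = 0.180), and lost its call without any 1 of the 4 libraries (edgeR adjusted p from 0.0566 to 0.139) or with DESeq2 (adjusted p = 0.0549). In the other lists 0 genes passed, among them 8 tested genes of microtubule binding and motors, with Dync1h1, the dynein heavy chain, at 0.37 (edgeR adjusted p = 0.585), and 4 of intermediate filaments and lamins, with the linker Plec at 0.70 (edgeR adjusted p = 0.117). With the default filter no tubulin other than Tubb5 and Tuba1b was tested, and the 16 of that list together held 0.0655% and 0.0362% of core coding counts in exosomes and 0.0741% and 0.0662% in tumour.

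**Figure D4:**
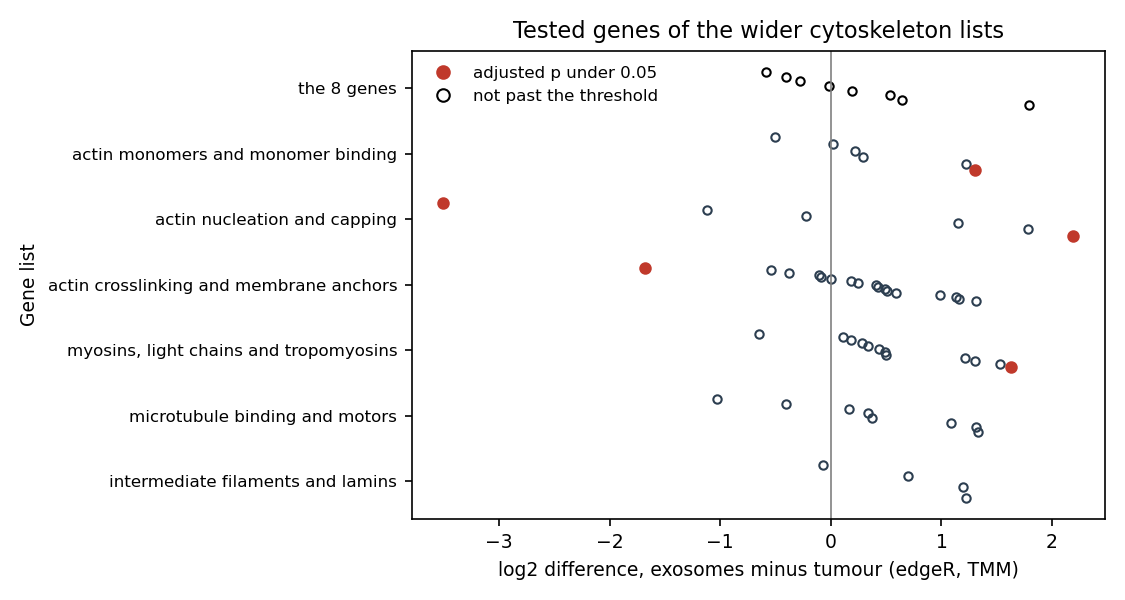
Log2 difference of exosomes minus tumour (edgeR, TMM) for the 8 genes and for each tested gene of 6 wider cytoskeleton lists, 1 point per gene; filled points have an adjusted p under 0.05. Of the 8 genes 0 are filled, and among the wider lists Arpc1b at −3.51 and Actn1 at −1.68 lie furthest to the left and Capg at 2.19 furthest to the right.

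The 3 protein-coding genes whose profile over the 4 libraries was most like that of the summed 8 were Col3a1, a fibrillar collagen, Rplp0, a ribosomal stalk protein, and Pabpc1, the cytoplasmic poly(A)-binding protein. Their root mean square difference from the sum was 0.19, 0.20 and 0.23 on the log2 scale after centring, among 25 candidates with at least 10 counts in every library. The differences of these genes themselves were 0.56, 0.59 and −0.04 (edgeR adjusted p = 0.138, 0.199 and 0.960).

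Markers of other cells differed in level between the groups. Of 11 macrophage markers, which sit in cells that express Actb, Vim and Tmsb4x strongly, all had a count in some library, 5 and 8 were at 0 in the exosome libraries and 0 and 2 in tumour, and their sum was 0.0916% and 0.163% of core coding counts in exosomes and 0.195% and 0.167% in tumour. Of 8 neutrophil markers, Ly6g was at 0 throughout and the sum was 0.236% and 0.199% against 0.134% and 0.0564%. Of 10 fibroblast and pericyte markers the sum was 0.353% and 0.417% against 0.269% and 0.211%, and of 7 endothelial markers 0.0916% and 0.0906% against 0.0328% and 0.0270%. Of 6 smooth muscle markers the sum was 0.0393% and 0.0543% against 0.0138% and 0.00491%, with Acta2 at 1 and 1 counts against 0 and 0, and Myh11, Tagln, Cnn1 and Des were at 0 in every library. Of 8 skeletal muscle markers the sum was 0.144% and 0.0906% against 0.0207% and 0.00491%, with Ttn at 8 and 3 counts against 1 and 1, and Ckm, Myh1, Myh2, Myh4 and Mylpf were at 0 in every library. The neutrophil, fibroblast, endothelial and both muscle sums were thus higher in both exosome libraries than in both tumour libraries, as was the summed share of the 8 genes. Of single protein-coding genes with a count in every library, 52.9% were so too. The macrophage sum, and the erythroid and platelet sum given below, were lower in both exosome libraries, as were 12.6% of such genes. Few genes carried some sums: S100a8 had 4 and 7 exosome counts, S100a9 11 and 4, and Col3a1 19 and 16. Other markers of these lists had no exosome count, with Csf3r at 0 and 0 counts against 7 and 6 and Pdgfra at 0 and 0 against 9 and 5. At the lower exosome depth these 0 values do not show a lower exosome level. Of 7 epithelial and carcinoma markers the sum was 0.0131% and 0.0362% against 0.0293% and 0.00981%, so the groups overlapped. Epcam, Cdh1 and Krt19 were at 0 in all 4 libraries, and Krt18 had 1 and 1 exosome counts against 11 and 4. The log2 difference of Krt18 was −0.07 (edgeR adjusted p = 0.968). Krt7, Krt8 and Cldn7 had at most 2 counts in any library. Of 8 T and natural killer cell markers a single one had a count, 1 in exosome replicate 1. The erythroid and platelet sum was the highest of these lists, at 82 and 105 counts in exosomes and 1662 and 883 in tumour, or 1.07% and 1.90% against 2.87% and 2.17%. In tumour, and in exosome replicate 2, that was more than the 8 genes held together. The part of these cells in the values of the 8 genes was not tested.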

How the data were processed

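Counts and FPKM per gene were read for 4 libraries of total RNA, ligated to adaptors at both ends, amplified and size-selected on a gel per the labels' protocols. TopHat2 2.0.9, Cuffdiff and Cufflinks 2.1.1 with GRCm38.p4 are listed per the submitters' processing notes. Counting tool, annotation, strand setting and treatment of reads with several matches: not given in the sources used here. Deposited counts are unscaled whole numbers. The deposited FPKM equal the count divided by a fixed length per gene and by the library total. Symbols, biotypes and coordinates came from GENCODE M21 (GRCm38), which held 46574 of 47069 IDs.

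The main test was edgeR 4.0.16 in R 4.3.3 on counts of all 4 libraries: filterByExpr (minimum count 10, total 15, so 1.79 CPM in at least 2 libraries), TMM scaling, a two-sided quasi-likelihood test of group without covariates, and p-values adjusted by Benjamini-Hochberg over all 1442 genes at 0.05. The SE is the difference divided by the square root of F. DESeq2 1.42.0, limma 3.58.1 on log2(FPKM + pseudocount), other scalings and filters, a replicate block and each library left out were tried as alternatives. Leave-one-out fits kept the same genes. Near-identical genes were found with blastn 2.17.0 at 90% identity over 80% of the shorter transcript. The test was checked on simulated data. The members, gene lists and naming rule (of each list up to 3 called genes, or the most abundant tested one if none was called, and the 3 coding genes most like the sum) were chosen with earlier results of these data known. Of the wider lists, 1 is counted in their totals and is otherwise not reported here.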

Additional observations from a re-analysis of the deposited data

How the results depend on the processing

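The count of 548 genes called by edgeR came to 1086 with library totals, 825 with no filter, and 1138, 1001 and 888 with limma on log2(FPKM + 0.1), log2(FPKM + 1) and log2(FPKM + 10), which is scaled to library totals too. Of all tested genes, 16.0% were called higher by edgeR and 63.8% with library totals. The share was 17.1% with the core coding sum and 16.8% with at least 10 counts in at least 2 libraries. With limma at the 3 pseudocounts it was 67.8%, 57.6% and 48.5%. Of the 8 genes, 0 were called higher, against 7 with library totals, 1 with the core coding sum, 3 with at least 10 counts in at least 2 libraries, and 7, 5 and 5 with limma at the 3 pseudocounts. No filter gave 2 called lower, beside 4.23% of all genes and 2.98% of protein-coding ones. Leaving out a library makes 1 group a single library, so calls in those fits are not counted here. A replicate block gave 1 called higher, Tmsb4x (1.81, edgeR adjusted p = 0.00488), beside 16.9% of all tested genes, and 589 genes called in all. The labels do not say that equal numbers share an animal. The differences between replicates of the 2 groups had a correlation of −0.0197 over 1442 genes. At the low exosome counts of most genes counting error alone can bring such a value near 0, so it cannot tell whether the libraries are paired. The cause of these changes was not tested.

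The sign turned with library totals and with limma at 0.1, 1 and 10, in that order, for Actg1 (2.36, 1.91, 1.37 and 0.40), Flna (2.76, 2.35, 1.07 and 0.18), Tubb5 (2.49, 2.26, 1.45 and 0.36) and Tuba1b (2.17, 1.94, 1.17 and 0.26). With at least 10 counts in at least 2 libraries it turned for Actg1 (0.036), Flna (0.42) and Tubb5 (0.16), with the core coding sum for Flna (0.062), and with no filter for Actb (−0.99), Myh9 (−0.64) and Vim (−0.53). Over single libraries left out, Actg1 ran from −1.78 to 0.21, Flna from −0.30 to 0.27 and Tubb5 from −0.98 to 0.24, none of which kept its sign. Tmsb4x stayed above 0 in all 16 alternatives that tested it, from 0.62 to 4.56. With the default filter it was admitted through the exosome libraries alone, where it is high, so the constant sign supports nothing on its own. Tmsb4x was not tested with at least 10 counts in at least 2 libraries.

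The log2 ratio of the summed share, 3.06 over all counts, was 2.1 over protein-coding counts and 0.36 over core coding counts. The wider lists had 51 called genes with library totals against 5, where 69.2% of tested protein-coding genes were called higher. Depth limits the exosome side: 5 of 8 members had under 10 counts in exosome replicate 2.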
